A study of Mus musculus with 4 samples.

Results

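The genes described here are 10 genes of iron and heme handling in mouse liver: the hormone gene Hamp, the transferrin receptor genes Tfrc and Tfr2, the ferritin genes Ftl1 and Fth1, the hemochromatosis gene Hfe, the iron exporter gene Slc40a1, the ferroxidase gene Cp, and the heme genes Alas1 and Hmox1. They were chosen by symbol, and all 10 were found among the 33924 gene symbols of the deposited counts, Tfr2 under its older symbol Trfr2. The study compared livers of male mice, C57BL6 in the labels and C57BL/6Rj in the methods, at the ages of 3, 9, 15 and 21 months, kept with free access to food and water and given no treatment that the labels name. For each age, liver RNA of 24 mice, 4 mice at each of 6 times of the day, was combined into 1 library, so that a value is a mean over the day and over mice, and no replicates exist at any age. Capped 5’-ends were sequenced, and the values are raw counts of reads.

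The liver is the main regulator of body iron. Hepatocytes secrete hepcidin, the product of Hamp, which binds ferroportin (Slc40a1) on macrophages and gut cells and causes its degradation, and they sense circulating iron through TFR2, HFE and BMP signals. Iron enters cells as transferrin-bound iron through TFRC, is stored in a shell of ferritin heavy and light chains (Fth1, Ftl1), and leaves through ferroportin, where ceruloplasmin (Cp) oxidises it for loading onto transferrin. ALAS1 catalyses the first and rate-limiting step of hepatic heme synthesis, and HMOX1 opens the heme ring and releases the iron.

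The mRNAs of ferritin, ferroportin and the transferrin receptor carry iron-responsive elements, hairpins bound by the iron regulatory proteins when iron is low. In the untranslated 5’-region such a hairpin blocks translation, and in the untranslated 3’-region it stabilises the mRNA, so that ferritin protein is also controlled at a step that an RNA count does not measure. A search of the annotated protein-coding transcripts of NCBIM37 (the mm9 assembly) for CNNNNNCAGTGN, on the sense strand, with the last base not G and followed by 5 bases that pair with the 5 after the first C (G-T pairs allowed), found the motif in 4 of the 10 genes. Of all 22611 protein-coding genes, 0.902% had a match anywhere in a transcript and 0.0973% had one in the untranslated 5’-region. In scaled counts, described below, both ferritin genes were lower at 15 and 21 months than at 3 months. Slc40a1, with the element in the same region, was not lower. A part of the element in these RNA values was not tested. The sites are shown here, and the capitals mark the 6 bases of the loop:
Fth1, untranslated 5’-region, chr19:10057221-10057250, plus strand: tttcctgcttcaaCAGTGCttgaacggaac
Ftl1, untranslated 5’-region, chr7:52715149-52715178, minus strand: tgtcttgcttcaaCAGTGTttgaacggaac
Slc40a1, untranslated 5’-region, chr1:45982310-45982339, minus strand: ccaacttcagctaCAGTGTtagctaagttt
Tfrc, untranslated 3’-region, chr16:32631304-32631333, plus strand: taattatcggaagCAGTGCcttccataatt
The Tfrc transcript held 3 further matches in its untranslated 3’-region. A match is a description of the letters and no test of protein binding.

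The counts on genes summed to between 525772 at 15 months and 958586 at 9 months, and the 10 members took between 0.388% and 0.426% of them. To compare ages, each count was divided by the geometric mean of its library, as in the centered log-ratio (clr) of the study, and brought back to the size of a count. These values are called scaled counts, and the geometric means rest on the 8704 genes counted at least once in each of the 4 libraries. All 8 hepatocyte marker genes examined were counted in every library, among them Alb, the gene of albumin, with 29404 to 55731 counts. Intervals are exact 95% intervals and cover counting error only. Since each age is 1 pool, a test of the 4 counts of a gene compares libraries and not ages, and in bulk liver fewer cells of a type and less RNA per cell cannot be told apart.

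The 4 libraries differed beyond counting noise for 6 of the 10 members (Pearson's chi-square test, Benjamini-Hochberg adjusted p over all 8704 genes): Hamp, Ftl1, Fth1, Hfe, Cp and Alas1. The same test called 25.3% of all genes. The share depends on depth. Of the genes with a mean of 100 counts or more 69.1% were called, and of the members at this depth 5 of 6, whereas of the genes below that depth 21.3% were called, and of such members 1 of 4. No member passed a linear trend with age (edgeR's quasi-likelihood test, adjusted p over 5569 genes, smallest adjusted p = 0.752 for Ftl1), and the test called 0.108% of all genes. At an unadjusted p under 0.05 edgeR gave 2 of the 10 members, Ftl1 and Hfe, against 5.21% of all 5569 genes tested. DESeq2's Wald test gave 3, the same genes and Fth1, none of them after adjustment. Its share over all genes was 1.84% of 15067. That set had no filter on low counts, so that the shares of edgeR and DESeq2 are not alike. In edgeR the number of members at this threshold was 0 without the 3 month library and 1, Ftl1, without the 21 month library. Of the 7 members with a mean of 20 counts or more, 1, Ftl1, passed 2-fold between any 2 ages, against 31.1% of the 2974 genes at this depth.

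**Figure D1:**
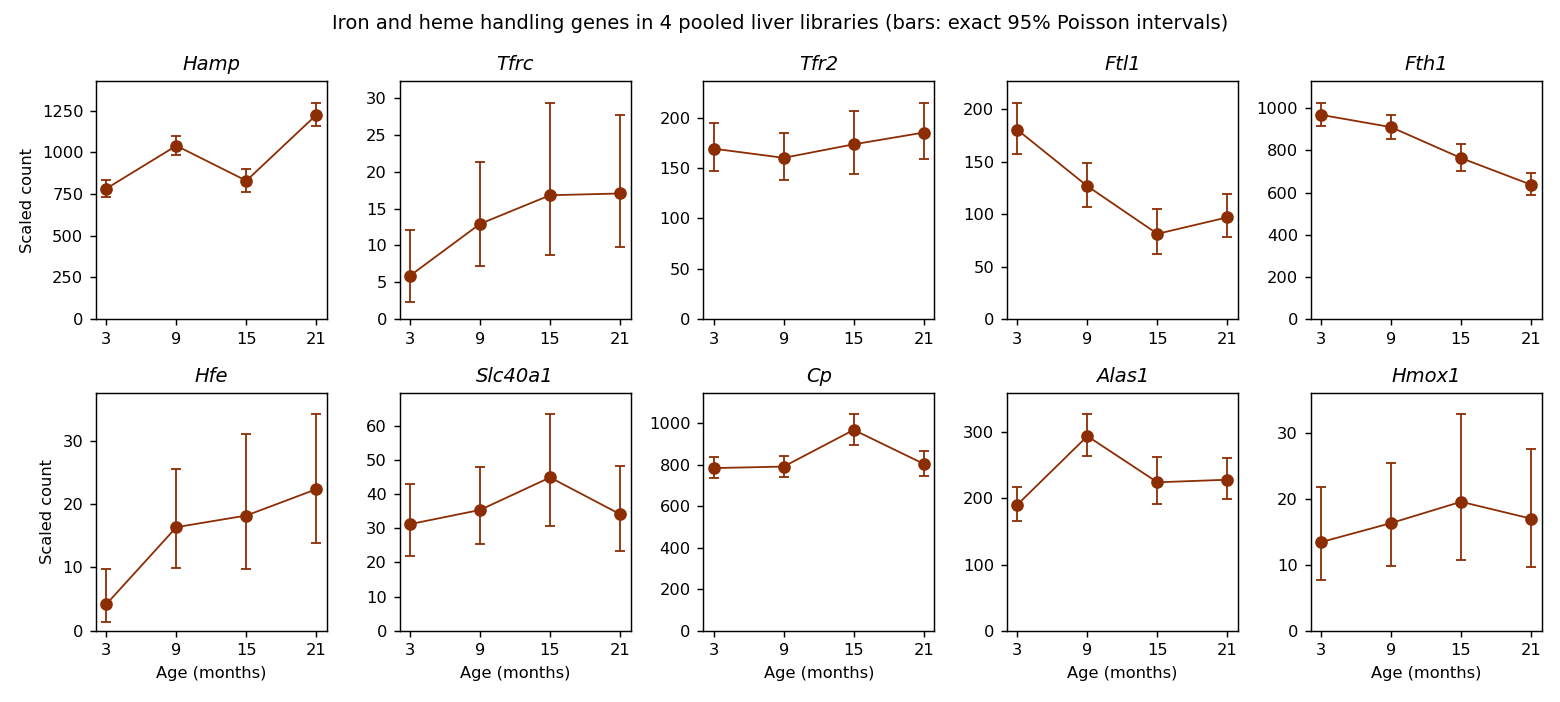
Scaled counts (vertical axes, starting at 0) of the 10 members against age in months, with 1 pooled library per age as points and exact 95% Poisson intervals as bars. Fth1 was lower at each later age, Ftl1 was lowest at 15 months, Hamp was highest at 21 months and Alas1 at 9 months, while the bars of Tfrc, Hfe, Slc40a1 and Hmox1 are wide.

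Fth1 encodes the ferritin heavy chain, the subunit with ferroxidase activity. It had 1149, 1056, 545 and 598 counts at 3, 9, 15 and 21 months, which are scaled counts of 968, 910, 763 and 637. The scaled count was lower at every step of age, a pattern shared by 5.04% of the genes with a mean of 20 counts or more. Scaled by the 7 normalisation genes of the study, the ratios to 3 months were 0.843, 0.863 and 0.679 at 9, 15 and 21 months. On that scale the 15 month library was not below the 9 month library. The 4 libraries differed (chi-square test, adjusted p = 1.18e-15). The ratio of 21 over 3 months was 0.658 with an interval from 0.595 to 0.727, and that of 9 over 3 months was 0.94 with an interval from 0.864 to 1.02, which includes 1. The fitted trend from 3 to 21 months was -0.57 on the log2 scale with an approximate SE of 0.34 and did not pass (edgeR, adjusted p = 0.998).

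Ftl1 encodes the ferritin light chain, the subunit that favours the nucleation of the iron core. It had 214, 147, 58 and 91 counts, or scaled counts of 180, 127, 81.2 and 97.0. The 3 month library was the highest and the 15 month library the lowest, and the libraries differed (chi-square test, adjusted p = 3.59e-08). At 15 months the ratio to 3 months was 0.451, with an interval from 0.331 to 0.605, which puts Ftl1 among the 8.84% of genes more than 2-fold lower in this comparison. The ratio of 21 over 3 months was 0.538 with an interval from 0.416 to 0.690. Between 15 and 21 months the ratio was 1.19, and the interval from 0.849 to 1.69 includes 1. The fitted trend was -0.95 on the log2 scale with an approximate SE of 0.39 (edgeR, adjusted p = 0.752), and it was -0.58 without the 3 month library and -1.58 without the 21 month library.

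The ratio of Ftl1 to Fth1 reads within a library does not depend on how libraries are scaled, and it was compared only between ages. In the order of age there were 0.186, 0.139, 0.106 and 0.152 Ftl1 reads per Fth1 read. Between 3 and 15 months the ratio changed 0.571-fold (approximate 95% interval from 0.420 to 0.777). Ftl1 was thus lower relative to Fth1 in the 15 month library than at 3 months. Between 3 and 21 months the change was 0.817-fold with an interval from 0.627 to 1.06, which includes 1.

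**Figure D2:**
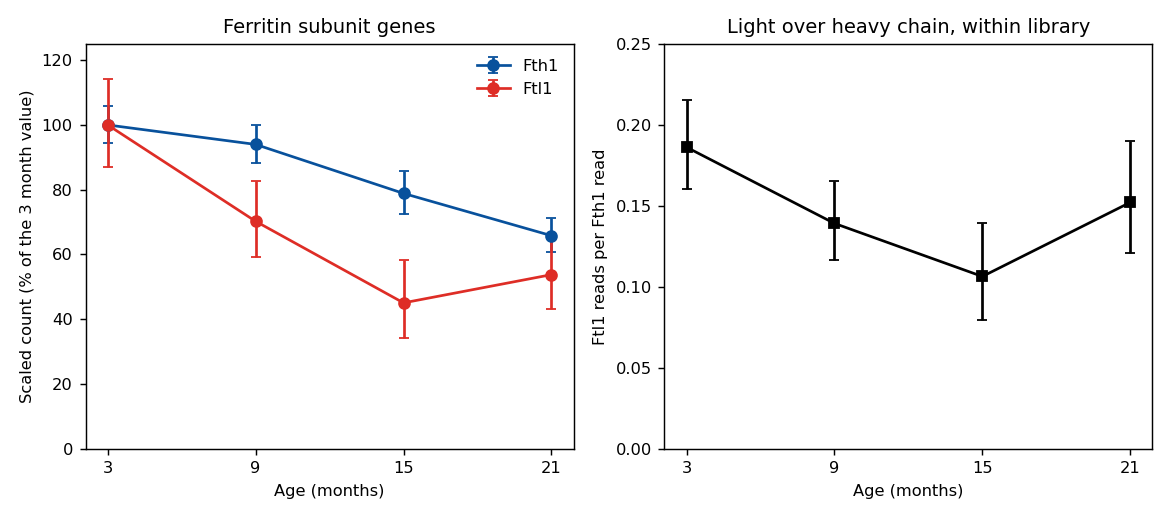
Left, scaled counts of Fth1 and Ftl1 as percent of their 3 month value against age, with exact 95% Poisson intervals of each count; right, Ftl1 reads per Fth1 read in each pooled library with exact 95% intervals. Both genes lie below their 3 month value at every later age, and the ratio was lowest at 15 months with 0.106.

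The ferritin genes have many processed copies, which limits unique counting of 35 base reads. Cut into all possible stretches of 35 bases, the first 100 bases of the annotated Ftl1 transcript matched a second site of the genome, allowing 1 mismatch, in 33.3% of the stretches. Over the whole transcript 95.3% did, and 80.2% of the stretches had an identical second site. For Fth1 the values were 0% in the first 100 bases and 30.3% over the whole transcript. A read with an identical second site has no unique alignment and would not be counted, which bears on the level of Ftl1 at all ages. Of all records, 72.2%, 76.7%, 74.6% and 76.0% had no unique alignment at 3, 9, 15 and 21 months. The part of such reads in the Ftl1 differences between libraries was not tested. Blood cells and macrophages also hold ferritin. The summed scaled counts of the blood cell genes were 1302, 1958, 1261 and 1081 at 3, 9, 15 and 21 months, with Epb4.2 at 0 in every library, and those of 12 Kupffer cell and macrophage genes were 730, 873, 791 and 958. Their part in the ferritin values was not tested.

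Hamp encodes hepcidin, the hormone that limits the entry of iron into plasma. It had 929, 1206, 592 and 1149 counts, or scaled counts of 783, 1039, 829 and 1224. The scaled counts did not follow age: the 9 and 21 month libraries were high, and the 3 and 15 month libraries were low (chi-square test, adjusted p = 3.95e-25). Scaled by the 7 normalisation genes of the study, the ratios to 3 months were 1.19, 1.16 and 1.61 at 9, 15 and 21 months. On that scale the 9 and 15 month libraries were close to each other. The ratios that follow are those of the scaled counts. The ratio to the 3 month library was 1.33 at 9 months with an interval from 1.22 to 1.45, 1.06 at 15 months with an interval from 0.954 to 1.18, and 1.56 at 21 months with an interval from 1.43 to 1.71. The fitted trend was 0.53 on the log2 scale with an approximate SE of 0.34 (edgeR, adjusted p = 0.998).

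Mice carry a second hepcidin gene, Hamp2, whose peptide is not known to regulate iron as hepcidin does. It had 18, 6, 0 and 7 counts at 3, 9, 15 and 21 months. The 3 month library was 3.61-fold above the limit of 3 counts at 15 months, the counting error of the 18 reads left out. Per Hamp2 read there were 51.6 Hamp reads at 3 months (interval from 32.5 to 87.5), 201 at 9 months (from 92.1 to 549) and 164 at 21 months (from 79.4 to 409). The intervals of 3 and 9 months do not overlap, and those of 3 and 21 months do.

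The upstream sequences of both genes are shown because their promoters are nearly the same. At 9 months Hamp was higher and Hamp2 lower than at 3 months. Both were lower at 15 than at 9 months and higher at 21 than at 15 months. The Hamp2 values rest on 0 to 18 counts, and their intervals at 9, 15 and 21 months overlap. A part of the promoters in these values was not tested. The lines below come from the RefSeq promoter table for GRCm38.p6, which is not the build of the counts. The capitals mark GGCGCC, the core of a known BMP response element of hepcidin promoters, and TTCNNNGAA, the core bound by STAT proteins, both of which read the same on the other strand:
Hamp, chr7:30944033-30944182, minus strand: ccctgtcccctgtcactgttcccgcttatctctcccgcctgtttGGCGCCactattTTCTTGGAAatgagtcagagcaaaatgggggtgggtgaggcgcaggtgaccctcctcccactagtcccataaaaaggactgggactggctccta
Hamp2, chr7:30924182-30924331, minus strand: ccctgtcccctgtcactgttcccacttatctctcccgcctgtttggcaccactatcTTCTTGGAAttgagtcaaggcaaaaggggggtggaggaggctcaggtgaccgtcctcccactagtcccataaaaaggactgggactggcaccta
Aligned without gaps, 138 of the 150 positions (92%) were identical. Counted from 1 at the first base shown, with the base of Hamp first, the difference G48A lies in the GGCGCC of Hamp, so that these letters are not in the Hamp2 window. The STAT core had no difference. GGCGCC was found in 9.59% and TTCNNNGAA in 7.02% of all 32851 promoter windows of 250 bases before a start site. Among the 8 members in the table, GGCGCC was also found for Tfrc and TTCNNNGAA also for Alas1.

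The same similarity bears on the counts of both genes. The first 100 bases of the Hamp transcript give 66 stretches of the read length, and all of them matched Hamp2 when 1 mismatch was allowed, 59.1% of them without a mismatch. Over the whole transcript 28.2% were identical in Hamp2. The split of reads between Hamp and Hamp2 is uncertain for this reason.

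Tfr2 encodes the transferrin receptor of hepatocytes that acts as an iron sensor. It had 201, 186, 124 and 174 counts, or scaled counts of 169, 160, 174 and 185. No difference among the libraries was detected (chi-square test, adjusted p = 0.687). Its variance of clr over the 4 ages was 0.00365, below the 0.00604 that counting noise alone would give and lower than that of all but 0.942% of the 8704 genes. The ratio of 21 over 3 months was 1.09 with an interval from 0.888 to 1.35, and changes within it could not be detected at this depth.

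Hfe encodes an MHC class I-like protein that takes part in iron sensing and is mutated in hemochromatosis. It had 5, 19, 13 and 21 counts, or scaled counts of 4.21, 16.4, 18.2 and 22.4. The 3 month library stood below the other 3 (chi-square test, adjusted p = 0.0196). The ratio to 3 months was 3.89 at 9 months, 4.32 at 15 months and 5.31 at 21 months. The last has an interval from 1.95 to 18.03, which shows how little 5 counts fix the size of the difference. The fitted trend was 1.92 on the log2 scale with an approximate SE of 0.89 (edgeR, adjusted p = 0.858), and it was 0.68 without the 3 month library and 3.01 without the 21 month library. Without the 3 month library Hfe was no longer called by the chi-square test.

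Tfrc, the gene of the general transferrin receptor, had 7, 15, 12 and 16 counts, or scaled counts of 5.90, 12.9, 16.8 and 17.05. The 3 month library was again the lowest, but the libraries did not pass the test (chi-square test, adjusted p = 0.183). The ratio of 21 over 3 months was 2.89 with an interval from 1.12 to 8.31. Per Tfrc read there were 28.7 Tfr2 reads at 3 months and between 10.3 and 12.4 at the other ages, and the interval at 3 months, from 13.7 to 72.3, overlaps the others.

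Slc40a1 encodes ferroportin, the only known exporter of cellular iron. It had 37, 41, 32 and 32 counts, or scaled counts of 31.2, 35.3, 44.8 and 34.1, and no difference among libraries was detected (chi-square test, adjusted p = 0.612). The highest ratio was 1.44 at 15 over 3 months, with an interval from 0.867 to 2.37, and a 2-fold difference would thus still be within counting error.

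Cp encodes ceruloplasmin, the copper ferroxidase of plasma and an acute phase protein. It had 929, 917, 690 and 754 counts, or scaled counts of 783, 790, 967 and 803. The 15 month library was high and the other 3 were close to each other (chi-square test, adjusted p = 0.000746). At 15 over 3 months the ratio was 1.23 with an interval from 1.12 to 1.36, and at 21 over 3 months it was 1.03 with an interval from 0.931 to 1.13. Without the 15 month library Cp was no longer called. Of 14 acute phase genes, 6 also had their highest scaled count at 15 months, Saa1, Saa2, Saa4, Orm2, Itih4 and Apcs, and 8 had it at another age. Summed scaled counts of the 3 fibrinogen genes were 13284, 13944, 10949 and 11980 at 3, 9, 15 and 21 months, and those of the other genes were 2728, 2749, 2905 and 2943. The share of all genes highest at 15 months was not determined, so that 6 of 14 cannot be set against it. Saa1 and Saa2 had only 4 to 33 counts per library. The 6 genes were picked after their values were seen, and the part of an acute phase response in the Cp value was not tested.

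**Figure D3:**
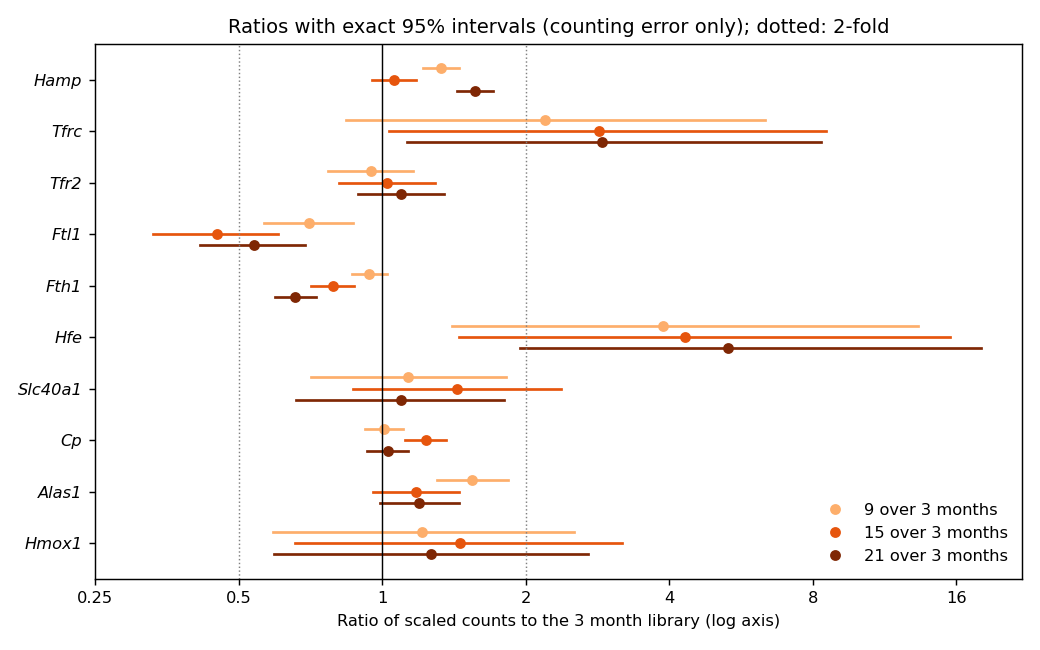
Ratios of scaled counts of 9, 15 and 21 months to the 3 month library (horizontal log axis) for each member, with exact 95% intervals as lines and 2-fold marked by dotted lines. Ftl1 and Fth1 lie below 1 at 15 and 21 months with their intervals, Hfe lies above 1 at all 3 ages, and the points of Tfr2 lie between 0.946 and 1.09.

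Alas1, the gene of hepatic 5-aminolevulinate synthase, had 226, 341, 160 and 214 counts, or scaled counts of 190, 294, 224 and 228. The 9 month library was high (chi-square test, adjusted p = 7.96e-05), with a ratio to 3 months of 1.54 and an interval from 1.30 to 1.83. At 21 over 3 months the ratio was 1.20 with an interval from 0.988 to 1.45. Without the 9 month library Alas1 was no longer called. The hemoglobin gene Hbb-b1 had its highest scaled count at 9 months as well, with 1302 against 657 to 838 at the other ages, but Alas2, the synthase of erythroid cells, was highest at 3 months with 124 and had 87.0 at 9 months. The part of blood cells in the Alas1 value was not tested.

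Hmox1 encodes the inducible heme oxygenase, which in liver is mainly found in macrophages. It had 16, 19, 14 and 16 counts, or scaled counts of 13.5, 16.4, 19.6 and 17.05, and no difference was detected at this depth (chi-square test, adjusted p = 0.838). The ratio of 21 over 3 months had an interval from 0.592 to 2.70. There were between 0.0557 and 0.0875 Hmox1 reads per Alas1 read in the 4 libraries, with overlapping intervals.

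In the assessment of the study, a gene counts as stable when its mean clr lies above and its variance of clr below the medians. The study took a smaller set of well counted 5’-ends for this, whereas the medians here are those of the 8704 genes. They were -0.21 and 0.16, and 8 of the 10 members met both criteria, all but Tfrc and Hfe. Of the 8704 genes 38.0% met them, but of those with a mean of 20 counts or more 84.2% did, as did all 7 members at this depth. Ftl1, with a variance of 0.12, met the criteria although its libraries differed past 2-fold. With the medians of the 4295 genes that reached 20 counts in a library, a set chosen after the data were seen, 8 members remained and 6 of them met both criteria, all but Ftl1 and Hfe, as did 36.0% of these genes.

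**Figure D4:**
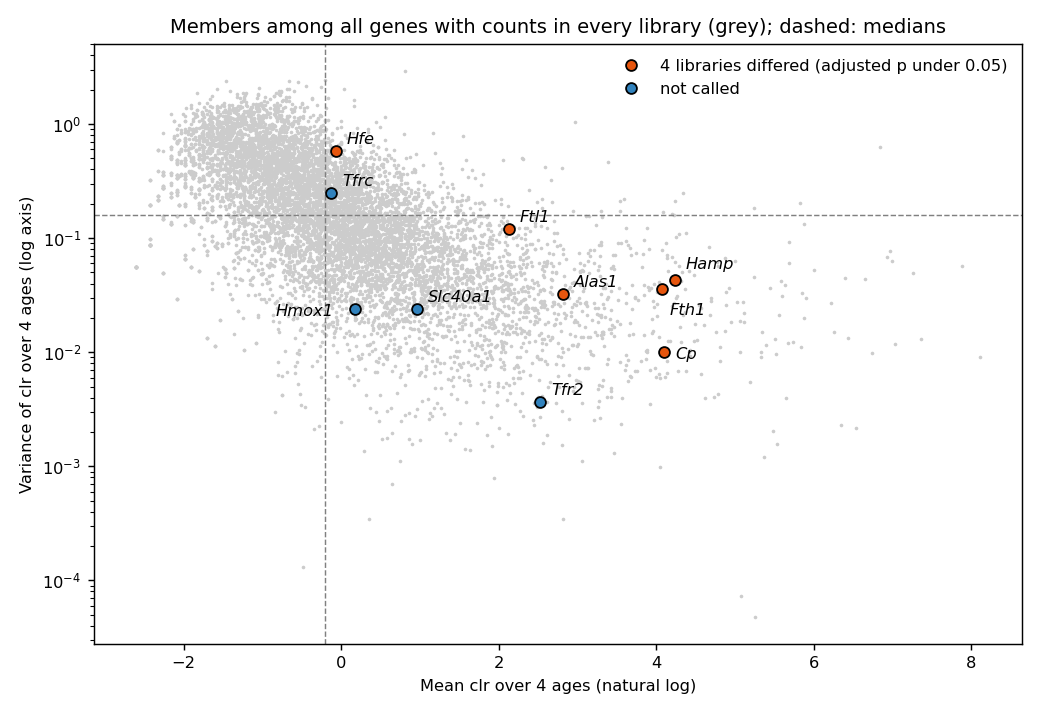
Variance of clr over the 4 ages (log axis) against mean clr (natural logarithm) for the 8704 genes with counts in every library (grey) and the 10 members, in orange where the 4 libraries differed by the chi-square test and in blue where they were not called. Hfe and Tfrc lie above the median variance of 0.16 (dashed), and Tfr2 has the lowest variance among the members with 0.00365.

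Among 497 genes with 100 counts or more in every library, those with a course most like a member were sought by the Euclidean distance of the centred clr over the 4 libraries. With only 4 points this is a description. Fth1 was closest to Scp2, Cd81 and Elovl2 (distances 0.0507 to 0.0747), Ftl1 to Paics and Tubb5 (0.148 and 0.168), and Hamp to Ly6e, Ces1g and Abcc2 (0.0657 to 0.0984). Tfr2 was closest to Psmc6, Serpind1 and Slc25a23 (0.00757 to 0.0462), Cp to Gm10076, Bche and Ces1b (0.0693 to 0.0809), and Alas1 to Ctsl, Slco1b2 and Snord82 (0.0417 to 0.101). Slc40a1, with its lower counts, was closest to SNORD101, Ugt2b34 and Mup20 (0.0630 to 0.0734). Fth1 and Ftl1 were 0.402 apart.

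The wider pathway was taken from lists of genes by role. Of the genes that set hepcidin transcription, the libraries differed for 5 of the 17 with counts in every library, close to the 25.3% of all genes. These were 2 of the 3 genes with a mean of 100 counts or more and 3 of the 14 below, beside 69.1% and 21.3% of all genes at these depths, and the following lists are given against the same shares. Hfe2, the gene of the BMP co-receptor hemojuvelin, had scaled counts of 111, 143, 85.4 and 132 (chi-square test, adjusted p = 0.0172). These were high at 9 and 21 months and low at 3 and 15 months, as was Hamp, although Hfe2 was highest at 9 months and Hamp at 21 months. The course was not particular to them, and that of Hamp depended on the scaling. Of the hepatocyte markers, Alb had it too, with scaled counts of 43955, 48018, 41189 and 51098, whereas Ttr was highest at 3 months with 12926. Its share over all genes was not determined. Furin, a protease that cleaves prohepcidin and hemojuvelin, had 158, 110, 85.4 and 113 (adjusted p = 0.000728) and was highest at 3 months. Tmprss6, the protease that dampens hepcidin signalling, had 265, 253, 235 and 243 and was not called (adjusted p = 0.710). The other 3 genes called, Bmpr1a, Bmpr2 and Smad7, had 4 to 28 counts per library. Id1, a target of BMP signals, had scaled counts of 29.5, 31.0, 16.8 and 43.7 and was not called (adjusted p = 0.0755).

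Of the genes of iron and heme transport, 7 of 14 were called, which were all 4 with a mean of 100 counts or more (69.1% of all such genes) and 3 of the 10 below (21.3%). Trf, the gene of transferrin, had scaled counts of 7323, 7866, 8113 and 8099 (chi-square test, adjusted p = 3.14e-10), a small difference with a ratio of 1.11 at 21 over 3 months and an interval from 1.07 to 1.14. Hp, the gene of the hemoglobin scavenger haptoglobin, was highest at 15 months, with a ratio of 1.29 to 3 months (interval from 1.21 to 1.37). Hpx, the gene of the heme scavenger hemopexin, had scaled counts of 3784, 3054, 3062 and 3662 and was low at both 9 and 15 months. The receptor gene Lrp1 had 746, 649, 381 and 589 counts, or scaled counts of 629, 559, 534 and 628 (adjusted p = 0.0489). Slc39a14, an importer of iron not bound to transferrin, was lowest at 15 months with 47.6, against 79.2 at 3 months (adjusted p = 0.0398). Scara5, a receptor for ferritin, had 3, 18, 13 and 16 counts (adjusted p = 0.0192), and the ferrireductase gene Steap3 had 7, 29, 6 and 17 (adjusted p = 0.00528). Lcn2, whose product binds iron-loaded siderophores and is an acute phase protein, had 0, 9, 32 and 23 counts. At 15 months it was 17.7-fold above the limit of 3 counts at 3 months, the counting error of the 32 reads left out. Lcn2 was named after its values were seen.

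Of the genes of iron storage and sensing, 2 of 6 were called, near the 25.3% of all genes. Aco1, the gene of iron regulatory protein 1, had scaled counts of 106, 151, 139 and 103 (chi-square test, adjusted p = 0.0162), and the gene of the iron chaperone Pcbp2 had 53.1, 34.5, 53.2 and 69.2 (adjusted p = 0.0301). Ireb2, the gene of iron regulatory protein 2, had 54.8, 49.1, 44.8 and 58.6 and was not called (adjusted p = 0.710). Pcbp1, a related chaperone gene, had 48.0, 58.6, 36.4 and 37.3 (adjusted p = 0.172).

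Of the enzymes of heme synthesis after ALAS1, all with a mean under 100 counts, 2 of 6 were called, beside 21.3% of all genes at this depth. Fech, which inserts the iron, had scaled counts of 55.6, 90.5, 85.4 and 86.3 (chi-square test, adjusted p = 0.0436). The 3 month library was thus the lowest, with a ratio of 1.55 at 21 over 3 months and an interval from 1.11 to 2.18. Cpox had 25.3, 40.5, 12.6 and 22.4 (adjusted p = 0.0156) and was highest at 9 months, as was Alas1. Alad and Urod, with 11 to 59 counts per library, were not called (adjusted p = 0.0791 and 0.0719). Summed over all 7 enzymes, the scaled counts were 166, 238, 154 and 183.

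Of the genes of heme breakdown and transport, 4 of 12 were called, beside 25.3% of all genes, and the 4 were among the 10 with a mean under 100 counts. Blvrb, a biliverdin reductase, had 85.9, 69.8, 50.4 and 45.8 (chi-square test, adjusted p = 0.00866) and was lower at every step of age, as was Fth1, with a ratio of 0.533 at 21 over 3 months and an interval from 0.364 to 0.768. Abcb6 had 37.1, 29.3, 53.2 and 21.3 (adjusted p = 0.0220). Bach1, the heme-sensing repressor of Hmox1, had 16, 30, 12 and 7 counts (adjusted p = 0.0385), and Blvra had 4, 12, 1 and 1 (adjusted p = 0.0234). The better counted genes Nr1d1, Pgrmc1 and Nfe2l2 were not called (adjusted p = 0.407, 0.0960 and 0.0753). Of the genes of iron-sulfur cluster assembly, all with a mean under 20 counts, 2 of 8 were called, Nfs1 and Nfu1, which is near the 21.3% of all genes under 100 counts.

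No gene of these lists passed the age trend, except that Lcn2 did when no filter on low counts was used (edgeR, adjusted p = 0.0215, against 0.0851 with the filter). None was past 2-fold between 3 and 21 months with a mean of 20 counts or more, a difference that 10.4% of all such genes showed. The median log2 ratio of 21 over 3 months was 0.13 for the 7 members at this depth, 0.06 for hepcidin signalling, 0.09 for iron transport, 0.03 for storage and sensing, -0.14 for heme synthesis and -0.07 for heme breakdown and transport, beside -0.03 for all 2974 genes.

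**Figure D5:**
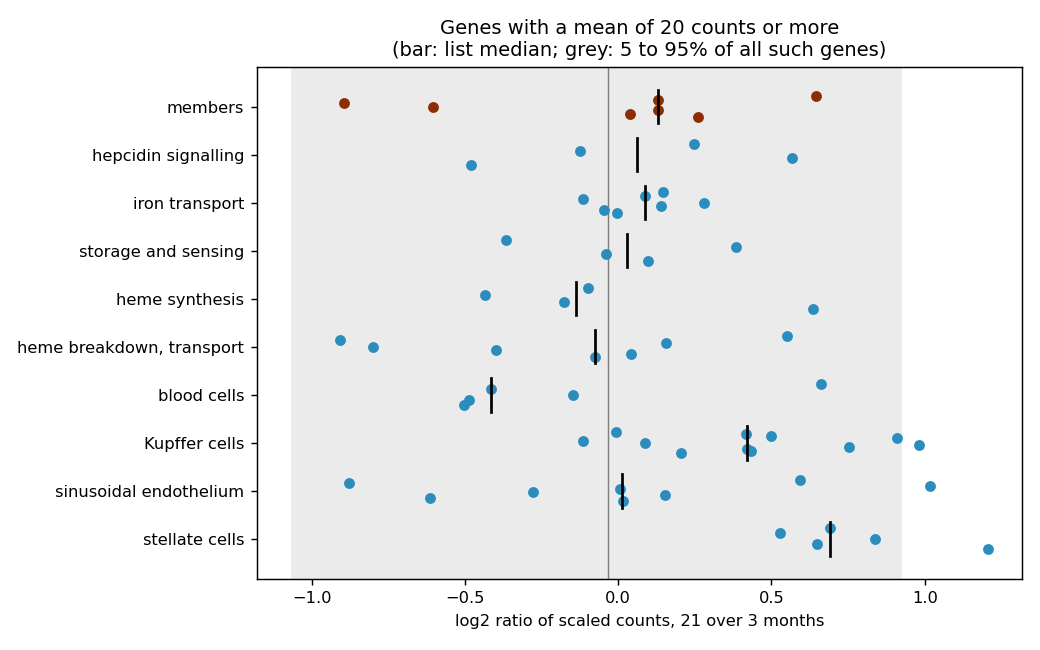
Log2 ratio of scaled counts of 21 over 3 months (horizontal axis) for genes with a mean of 20 counts or more, by list, for the members, the pathway lists and the markers of blood, Kupffer, endothelial and stellate cells, with black bars for the list medians and a grey band from the 5% to the 95% point of all 2974 such genes. All members and pathway genes plotted lie within the band from -1.07 to 0.92, with Ftl1 the lowest member and Hamp the highest.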

How the data were processed

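The authors deposited raw counts of reads per gene symbol for 4 libraries, after mapping to mm9 in the Genomic workbench of CLC Bio. The processing notes name HTSeq, whose version and annotation are not given in the sources used here. Records not assigned to a gene were left out, among them 72.2% to 76.7% of all records whose alignment was not unique. The members and the gene lists were chosen with earlier results of these data known. Scaled counts are counts divided by the geometric mean of the library over genes above 0 in every library. The chi-square test had 3 degrees of freedom. The age trend was fitted with edgeR 4.0.16 on TMM factors after filterByExpr, with 2 residual degrees of freedom and an adjusted p of 0.05 as threshold; its SE was taken from the F value and is approximate. DESeq2 1.42.0 was an alternative. The edgeR trend was also run on simulated data with larger changes than the fitted trends of the members. Their dispersion was below the 0.0733 estimated here, so that the power in these data is not given. Ratios were taken without a minimum count, and counts of genes past 2-fold required a mean of 20 counts. Named genes were all members, per pathway list up to 4 genes with the highest counts and those passing a test or 2-fold, and the 3 nearest genes of each member with 100 counts or more in total. Some genes that this rule names are not reported here. Iron-sulfur genes called are named without values because of their low counts. Positions and windows come from GENCODE M1 on NCBIM37. Software was Python 3.11.15, scipy 1.17.1 and R 4.3.3.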

Additional observations from a re-analysis of the deposited data

How the results depend on the processing

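Of the 10 members, the number that differed among libraries was 6 with TMM factors, DESeq2 size factors, library totals or the 7 normalisation genes of the study, and 5 with 10 counts required in every library, where Hfe had no value. It ranged from 5 to 6 without 1 of the ages: Hfe was lost without 3 months, Alas1 without 9 months and Cp without 15 months. The fitted trends of Slc40a1 and Alas1, 0.27 and 0.13 on the log2 scale, turned to -0.053 and -0.54 without the 3 month library and were 0.92 and 0.50 without the 21 month library, which made their ranges without 1 age. That of Fth1 was -0.38 without the 21 month library. No member passed the age trend under any alternative, whereas over all genes the trend gave 6 calls, 2 with library totals, 0 with DESeq2, 9 without a filter and 7 to 23 without 1 age. The chi-square test called 2204 of all genes, 1238 with 10 counts required and 1288 to 1636 without 1 age. Past 2-fold there was 1 member in the report, 3 without a minimum and with a pseudocount of 1 (Tfrc, Ftl1 and Hfe), and 4 past 1.5-fold (Hamp, Ftl1, Fth1 and Alas1). Scaling by the 7 genes shifted log2 ratios to 3 months by -0.16 at 9 months and 0.13 at 15 months, and library totals by 0.13 at 15 months. The 9 over 3 month ratio was then 1.19 for Hamp, 0.843 for Fth1 and 0.905 for Cp under the 7 genes. Under the same genes the 15 over 3 month ratio was 1.16 for Hamp and 0.863 for Fth1. The stepwise decline of Fth1 and the low 15 month value of Hamp thus depended on the scaling. The ratio of Cp at 9 over 3 months crossed 1 under library totals as well, and those of Tfrc and Alas1 at 21 over 15 months crossed 1 under every other scaling, all within counting error in the report. A pseudocount of 1 left the ratios between members within their intervals. No paired analysis was possible because each age has 1 library. Depth limits Tfrc, Hfe, Slc40a1 and Hmox1 most, with 50 to 142 reads in all.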
